A study of Mus musculus with 4 samples.

Results

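The genes described here encode the Wnt ligands, their receptors, and the secreted and intracellular proteins that tune the response. They were taken by symbol from the platform annotation: names beginning with Wnt, Fzd, Sfrp, Dkk, Rspo or Dvl and a digit, Lgr4, Lgr5 and Lgr6, Axin1 and Axin2, and Lrp5, Lrp6, Wif1, Ctnnb1, Lef1, Tcf7, Tcf7l1 and Tcf7l2. That rule found 57 of the 18194 genes that had a probe set of their own on the array, 1 of which, Fzd10os, is an opposite-strand transcript and not a receptor. Tcf7 was not analysed here. Of the 57 genes, 42 rose above the median of all deposited values (log2 8.90) on at least 1 array and were tested. The other 15 stayed at or below that level on all 4 arrays. They were Wnt2, Wnt2b, Wnt3, Wnt3a, Wnt6, Wnt8a, Wnt8b, Wnt10a, Wnt16, Lrp5, Dkk1, Dkk2, Dkk4, Wif1 and Rspo4.

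Wnt ligands are lipid-modified secreted proteins that bind Frizzled receptors. With the co-receptors Lrp5 or Lrp6, a ligand recruits Dishevelled, the Axin complex stops marking β-catenin for destruction, and β-catenin then acts with TCF and LEF factors on target genes. Wnt5a, Wnt5b and Wnt11 are best known for branches that do not need β-catenin and that act on cell polarity and movement. R-spondins bind Lgr receptors and keep Frizzled at the surface, while Sfrp, Dkk and Wif1 proteins hold the signal back. In mesenchyme these genes take part in limb patterning and fibroblast growth.

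The cells were mouse embryonic fibroblasts, cultured cells of mixed mesenchymal origin, used at passage 5 in medium with 10% serum. The 4 groups were FAK +/+ untreated, FAK +/+ with endothelin-1 (ET-1), FAK -/- untreated and FAK -/- with ET-1; FAK is focal adhesion kinase, and ET-1 is a peptide ligand of G protein-coupled receptors. All groups, controls included, spent 24 h without serum from 50% confluence before 24 h with or without ET-1. The labels do not say how many embryos or lines gave the cells, and each group was read on 1 Affymetrix mouse expression array. Differences between lines and the loss of FAK therefore cannot be told apart.

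Values are log2 units of RMA, the method that turned probe signals into 1 level per probe set. Each gene is represented by its brightest probe set. A difference between 2 arrays has no replicate check, and a gene is called where limma, fitted over all 4 arrays with genotype and treatment as terms, gave an adjusted p under 0.05 over 12290 genes. That fit measures a difference against the genotype by treatment term, the only residual it has, and not against a spread between cultures. Levels of different genes are not compared, since each probe set has its own brightness.

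Several facts of the arrays touch the results. The ET-1-treated wild-type array had a 3' minus 5' gap of 3.79 for Gapdh, against 0.85 to 0.90 on the others, and of 1.81 for Actb, against 0.66 to 1.30, so it lost more signal toward the 5' ends of transcripts. Of 14 fibroblast markers 13 passed the level filter, and 9 fell and 1 rose in the knockout. Mesothelial markers (8 of 8 past the filter, 5 risen and 1 fallen) had a summed level of log2 14.29 in untreated and 13.18 in ET-1-treated wild type, against 16.59 and 16.44 in the knockout. The 11 epithelial markers, 9 of them past the filter, summed to 13.91 and 13.39 against 15.30 and 14.97, with 4 risen and 1 fallen. Among them Epcam read 11.69 to 12.08 over the arrays, while Cdh1, which encodes E-cadherin, stayed between 5.74 and 5.95. Of 8 endothelial markers 2 passed the filter, Kdr (10.14 to 10.63) and Esam (10.05 to 10.13), while the defining gene Cdh5 was below it on all arrays. Of 8 immune markers 4 passed, Adgre1, Cd3e, Lyz2 and Csf1r, while the leukocyte gene Ptprc was below it on all arrays. Csf1r, a macrophage receptor gene, rose. Krt19, which is in both the mesothelial and the epithelial list, is the fallen gene of each. In a bulk sample, fewer cells of a type and less RNA per cell cannot be told apart.

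Of the 42 Wnt genes tested, 10 differed between genotypes, 6 higher and 4 lower in the knockout. The 6 were the ligands Wnt5a, Wnt5b and Wnt11, the receptors Fzd4 and Fzd5 and the R-spondin Rspo1. The 4 were the ligand Wnt4, the receptors Fzd1 and Fzd8 and the R-spondin Rspo3. The members' share called was 23.8%, against 13.6% of all genes, with 6.6% of all genes higher and 7.05% lower. Rspo1, Rspo3 and Wnt5b passed the level filter only through the genotype where they were higher. Among genes above that level on all 4 arrays, 7 of 35 Wnt genes were called, against 13.2% of all genes. The remaining 32 of the 42 had genotype differences from -0.76 to 0.62. The median over the 42 was -0.03, beside -0.0047 over all genes. The median size regardless of sign was 0.20, beside 0.22.

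Between the untreated arrays 7 Wnt genes, the 6 called higher and Wnt9a, reached 2-fold upward in the knockout, where 4.78% of all genes did. Downward, Fzd1, Fzd8 and Rspo3 reached it, where 4.59% did. After ET-1 the upward count was 3, beside 5.61% of all genes, and the downward count was 5, beside 6.53%; the 5 added Wnt4 and Sfrp1. In both states 3 were 2-fold higher (Wnt5a, Fzd4 and Rspo1) and 3 were 2-fold lower (Fzd1, Fzd8 and Rspo3), against 7.48% of all genes in either direction. The untreated and the ET-1 comparison share no array. They had the same sign for 32 of the 42 members (76.2%), against 71.8% of all genes. Among called genes a shared sign follows from the fit, and the 32 include all 10 called members. Of the 32 members not called, 22 had the same sign (68.8%). The 71.8% likewise includes the called genes among all genes.

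**Figure D1:**
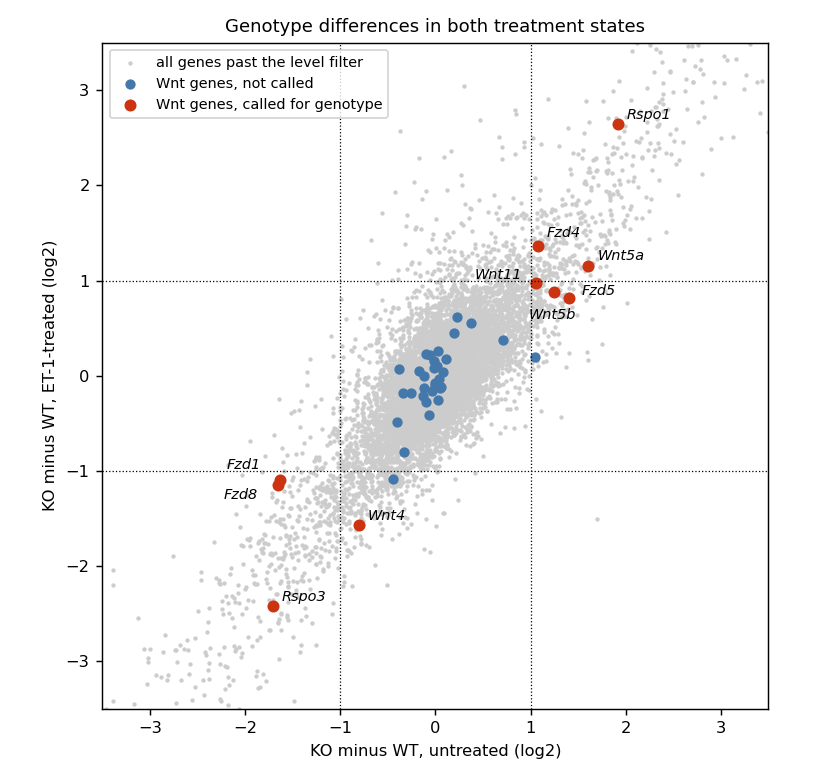
Knockout minus wild-type difference on the log2 scale in untreated cells (x axis) and after ET-1 (y axis), 1 point per gene past the level filter; dotted lines mark 2-fold, and 139 genes lie outside the axes. The 10 called Wnt genes (red) lie away from the centre in the lower left or upper right, with Rspo1 and Rspo3 farthest out, and the other Wnt genes (blue) lie among the bulk.

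Among the ligands, 10 of 19 were tested, 3 were higher in the knockout and 1 was lower, beside 6.6% and 7.05% of all genes. Wnt5a, which orients cells and directs outgrowth in limb and face mesenchyme, read 10.09 in untreated and 10.59 in ET-1-treated wild type, and 11.70 and 11.75 in the knockout. Both knockout arrays lay above both wild-type arrays. The difference was 3.04-fold untreated and 2.23-fold after ET-1, and limma gave 1.38 ± 0.17 (SE, log2, adjusted p = 0.0196). Averaging its 4 probe sets gave a smaller difference, 0.62 (adjusted p = 0.0184).

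Wnt5b, the close relative of Wnt5a, read 7.76 and 8.24 in wild type and 9.01 and 9.12 in the knockout. The wild-type values were below the level filter, so the fold of 2.38 untreated and 1.84 after ET-1 is uncertain. By limma it rose by 1.06 ± 0.14 (adjusted p = 0.0205). Both probe sets of Wnt5b are of kinds that can match more than 1 transcript, so it has no value where such probe sets are left out. The dimmer one, 1439373_x_at, read 6.71 and 6.85 in wild type and 8.40 and 8.97 in the knockout. It was above the filter on the ET-1-treated knockout array alone, so its differences of 1.69 untreated and 2.12 after ET-1 are uncertain too.

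Wnt11, a polarity ligand that shapes branching of the kidney bud, had 1 probe set. It read 9.27 and 9.32 in wild type against 10.32 and 10.30 in the knockout. The difference was 2.08-fold and 1.97-fold, and 1.02 ± 0.09 by limma (adjusted p = 0.0109). It hardly moved between treatments: ET-1 minus untreated gave 0.06 in wild type, -0.02 in the knockout.

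Wnt4, a ligand needed for kidney tubule and female gonad development, went the other way. It read 10.43 and 10.61 in wild type, 9.63 in the untreated knockout and 9.03 in the ET-1-treated knockout. The knockout was lower 1.75-fold without and 2.98-fold with ET-1, and limma gave -1.19 ± 0.21 (adjusted p = 0.0414). That call was lost without the intensity trend (adjusted p = 0.063), without the level filter (0.067), without the less specific probe sets (0.0571) and with every probe set as its own feature (0.0685). The mean of both probe sets gave -0.72 (adjusted p = 0.0281).

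Wnt9a read 8.92 and 9.28 in wild type and 9.98 and 9.47 in the knockout. It was 2.07-fold higher in the untreated knockout and 1.15-fold after ET-1, and it was not called (adjusted p = 0.176). The other 5 tested ligands, Wnt1, Wnt7a, Wnt7b, Wnt9b and Wnt10b, had limma differences from -0.24 for Wnt10b to 0.06 for Wnt7b.

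**Figure D2:**
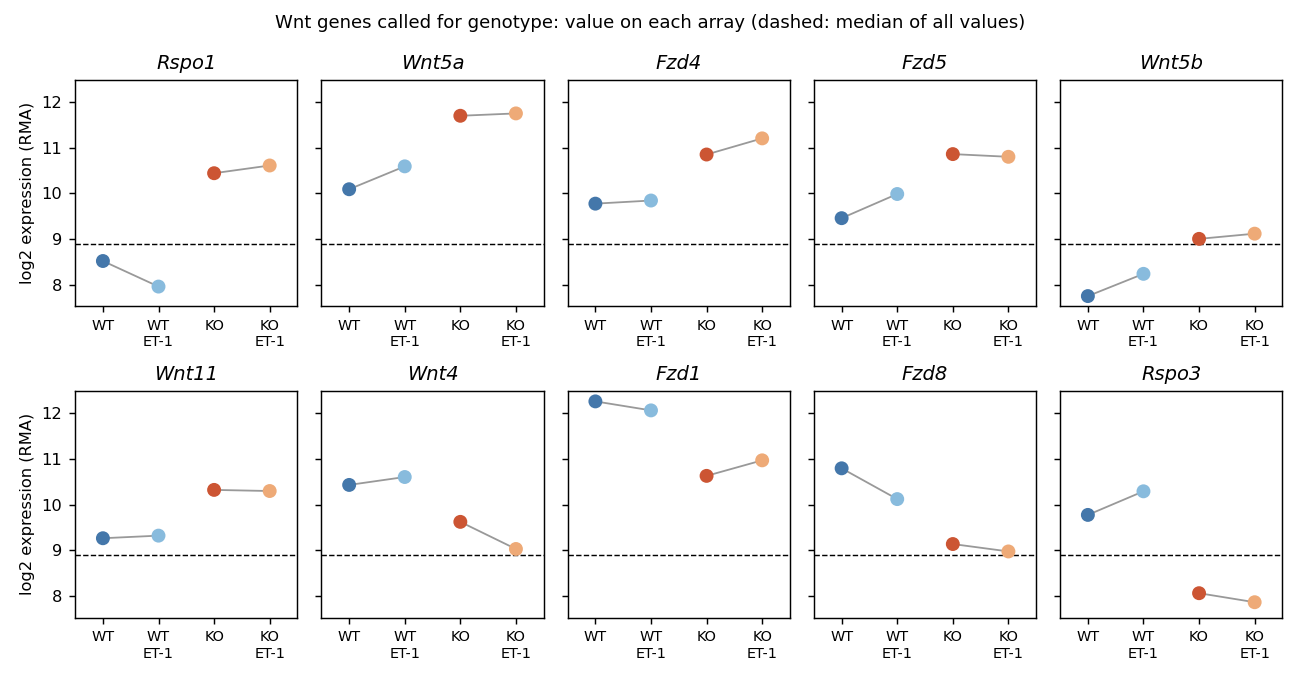
Log2 expression on each of the 4 arrays (wild type WT, knockout KO, each untreated or with ET-1) for the 10 Wnt genes called for genotype; a point is 1 array, lines join arrays of 1 genotype, and the dashed line is the median of all values. In every panel both knockout points lie on the same side of both wild-type points, and the wild-type points of Rspo1 and Wnt5b and the knockout points of Rspo3 lie below the dashed line.

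All 10 Frizzled genes passed the filter, and 2 rose and 2 fell in the knockout, beside 6.6% and 7.05% of all genes. Fzd4, the receptor of norrin as well as of Wnts, read 9.78 and 9.84 in wild type and 10.85 and 11.20 in the knockout. It was 2.11-fold and 2.56-fold higher, and rose by 1.22 ± 0.13 by limma (adjusted p = 0.0139). A second Fzd4 probe set read 8.32 and 7.87 in wild type, below the filter, and was tested only through its higher knockout values. It differed by 1.42 untreated and 2.43 after ET-1 and was called as a feature of its own (adjusted p = 0.047).

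Fzd5, a receptor with known roles in the gut and the eye, read 9.46 and 9.99 in wild type and 10.86 and 10.80 in the knockout. The difference was 2.64-fold untreated and 1.76-fold after ET-1, with 1.11 ± 0.18 by limma (adjusted p = 0.0332). The call was lost without the level filter (adjusted p = 0.0566) and with every probe set as its own feature (0.0582). A second Fzd5 probe set, past the filter, differed by 0.43 untreated and 0.42 after ET-1. It was not called by limma as a feature of its own (adjusted p = 0.0993). The mean of both probe sets gave 0.76 by limma (adjusted p = 0.0207).

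Fzd1, a broadly expressed receptor of the β-catenin branch, read 12.26 and 12.06 in wild type and 10.63 and 10.97 in the knockout. The knockout was lower 3.09-fold without and 2.13-fold with ET-1, and limma gave -1.36 ± 0.20 (adjusted p = 0.0281). The mean of both probe sets gave -0.83, and with every probe set as its own feature the adjusted p was 0.0507. Fzd8, a receptor with high affinity for Wnts, read 10.80 and 10.12 in wild type and 9.14 and 8.98 in the knockout. It was 3.15-fold and 2.21-fold lower, with -1.40 ± 0.16 by limma (adjusted p = 0.0154), while averaged over both probe sets it did not pass the level filter.

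The 6 Frizzled genes not called had differences from -0.56 for Fzd6 to 0.42 for Fzd7. Fzd6, a polarity receptor of skin and hair, read 12.75 and 13.04 in wild type against 12.42 and 12.24 in the knockout (adjusted p = 0.159). Fzd2 differed by -0.40 untreated and -0.49 after ET-1 (adjusted p = 0.162), and its other 2 probe sets had the same sign. Fzd3, Fzd9 and Fzd10 differed by 0.07, -0.05 and -0.10, and the transcript Fzd10os by 0.07. Of the co-receptors, Lrp6 read 11.02 and 11.19 in wild type and 11.39 and 11.75 in the knockout, and was not called (0.47 ± 0.15, adjusted p = 0.141). Lrp5 read 7.44 to 7.70, below the filter.

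R-spondins held the largest differences of the family and Rspo1 and Rspo3 moved in opposite directions. Rspo1, known for its part in ovary determination, read 8.52 and 7.96 in wild type, below the level filter, and 10.44 and 10.61 in the knockout. It was 3.78-fold higher untreated and 6.26-fold after ET-1, folds that are uncertain because of the dim wild-type values, and limma gave 2.28 ± 0.20 (adjusted p = 0.01). Of the 8 mesothelial markers 5 also rose (Msln, Upk1b, Lrrn4, Wt1 and Muc16), Upk3b and Gpm6a were not called (adjusted p = 0.0607 and 0.0803), and Krt19 fell (-2.98). The summed mesothelial level was lowest on the same array as Rspo1. Their part in the Rspo1 difference was not tested.

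Rspo3, an R-spondin of blood vessels and limb mesenchyme, read 9.78 and 10.29 in wild type and 8.07 and 7.87 in the knockout, where both values were below the filter. The knockout was lower 3.27-fold without and 5.37-fold with ET-1, and Rspo3 fell by 2.07 ± 0.20 by limma (adjusted p = 0.0119). Its second probe set, below the filter on all arrays, differed by -0.10 and 0.20, and the mean of both gave -1.01 (adjusted p = 0.0137).

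Rspo2, which acts in limb and lung growth, depended on the probe set. The brightest by mean, 1430104_at, read 10.33 and 10.40 in wild type and 10.23 and 10.12 in the knockout, and was not called (-0.19 ± 0.11, adjusted p = 0.351). The other, 1455893_at, read 10.57 and 11.42 in wild type and 8.23 and 7.67 in the knockout, where both values were below the filter. Its difference of -2.34 untreated and -3.75 after ET-1 exceeded that of Rspo3 in both states. With every probe set as its own feature it was called (-3.04 ± 0.39, adjusted p = 0.0367), and the mean of both gave -1.62 (adjusted p = 0.0165). Which of these probe sets follows the Rspo2 transcript was not tested. With every probe set as its own feature, 9 Wnt genes had at least 1 probe set called, against 11.2% of all genes; these kept 7 of the 10, lost Fzd1, Fzd5 and Wnt4, and gained Rspo2 and Sfrp1. Rspo2 and Sfrp1 were gained through probe sets that were below the filter in the knockout. Wnt5b was kept through its dimmer probe set (adjusted p = 0.0492), which passed the filter only on the ET-1-treated knockout array. Its brightest, 1422602_a_at, was not called (0.0549).

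The R-spondin receptors were not called. Lgr4 read 11.55 and 11.57 in wild type and 11.74 and 12.01 in the knockout (0.32 ± 0.17, adjusted p = 0.312). Lgr5, the stem cell marker, read 9.25 to 9.38 and Lgr6 8.71 to 8.91 over the 4 arrays.

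Secreted inhibitors had 5 of 9 genes tested and 0 called, where 13.6% of all genes were called, a share that so few genes cannot be told apart from. Sfrp1, which binds Wnts outside the cell, read 10.39 and 10.94 in wild type and 9.95 and 9.86 in the knockout (-0.76 ± 0.19, adjusted p = 0.0829; unadjusted p = 0.0157). It passed with the mean of its 5 probe sets (-0.78, adjusted p = 0.0214), with array medians subtracted (0.0286) and by the probe set 1448395_at alone. That probe set read 9.79 and 10.21 in wild type against 8.43 and 8.40 in the knockout, where both values were below the filter. As a feature of its own it gave -1.59 ± 0.16 by limma (adjusted p = 0.0259). All 5 Sfrp1 probe sets were lower in the knockout in both states, by sizes from -0.26 to -1.81. Sfrp2, Sfrp4, Sfrp5 and Dkk3 had differences from -0.13 for Dkk3 to 0.14 for Sfrp4.

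**Figure D3:**
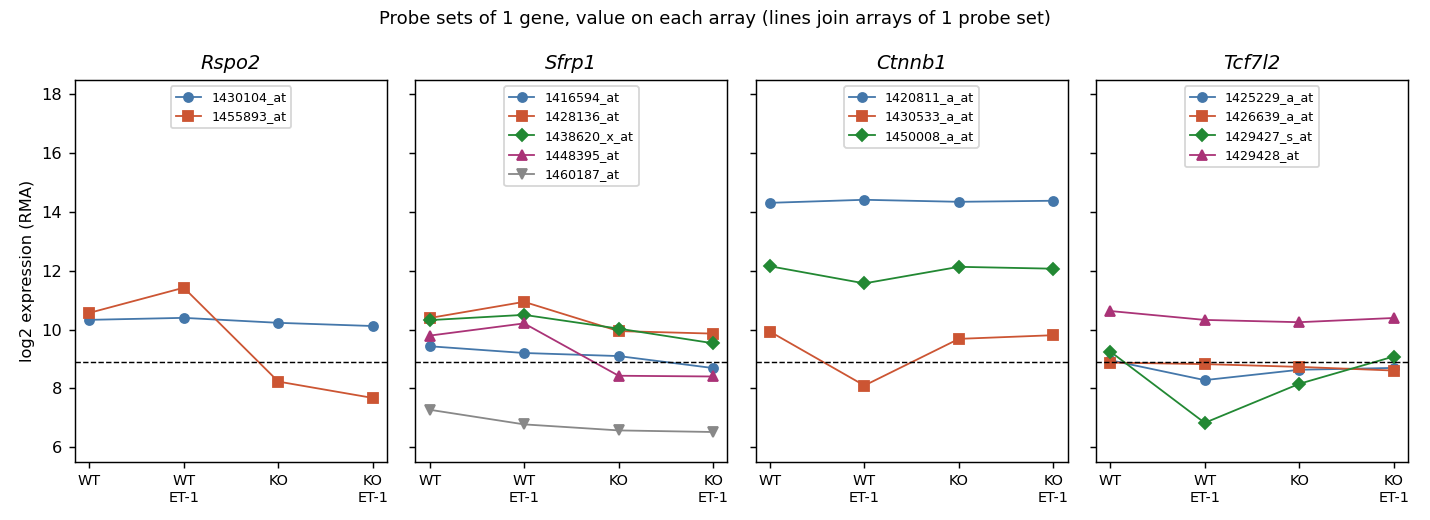
Log2 expression of each probe set of Rspo2, Sfrp1, Ctnnb1 and Tcf7l2 on the 4 arrays (x axis), with the median of all values dashed. Rspo2 probe set 1455893_at falls from 11.42 in ET-1-treated wild type to 7.67 in the ET-1-treated knockout while 1430104_at stays between 10.12 and 10.40, and 1 probe set each of Ctnnb1 and Tcf7l2 dips on the ET-1-treated wild-type array.

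Inside the cell, limma called 0 of the genes for Dishevelled (3), Axin (2), β-catenin and the TCF and LEF factors (4), where 13.6% of all genes were called. So few genes cannot show a share below that. Of these intracellular genes, Dvl1 was the 1 with an unadjusted p under 0.05. Dvl1, which relays the signal from Frizzled, read 12.02 and 12.50 in wild type and 12.74 and 12.87 in the knockout (0.54 ± 0.18, unadjusted p = 0.0403, adjusted p = 0.146). Dvl2 and Dvl3 differed by 0.14 and 0.06. Axin1, the scaffold of the destruction complex, read 11.58 to 12.02 over the 4 arrays with a difference of 0.08 ± 0.18. Axin2, the scaffold that β-catenin signalling itself induces in many tissues, read 9.07 and 8.96 in wild type and 8.73 and 8.77 in the knockout (-0.26 ± 0.10, adjusted p = 0.19).

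Ctnnb1, which encodes β-catenin, read 14.31 and 14.41 in wild type and 14.35 and 14.38 in the knockout by its brightest probe set. The difference was 0.0009 ± 0.0866 (adjusted p = 0.997). Lef1 read 8.73 to 9.05, close to the filter (-0.17 ± 0.10, adjusted p = 0.338). Tcf7l1, often a repressor, read 11.42 to 11.59 (-0.06 ± 0.16, adjusted p = 0.859), and Tcf7l2 read 10.25 to 10.63 (-0.16 ± 0.15, adjusted p = 0.579).

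Promoter sequence is shown for 4 called genes, 2 that rose and 2 that fell, to set their upstream windows side by side. Each is the 250 bases before a transcript start from RefSeq on build GRCm38.p6, printed 5′ to 3′ on the gene's strand. Capitals mark matches to the core of the TCF/LEF motif (CTTTGA, or TCAAAG on the other strand). A TEAD motif (GGAATG, or CATTCC) was also searched on both strands; a stretch that matches one cannot match the other. Wnt11 lies at chr7:98834862-98835111 on the plus strand, Rspo1 at chr4:124986180-124986429 on the plus strand, Fzd1 at chr5:4758217-4758466 on the minus strand and Wnt4 at chr4:137277385-137277634 on the plus strand.
Wnt11: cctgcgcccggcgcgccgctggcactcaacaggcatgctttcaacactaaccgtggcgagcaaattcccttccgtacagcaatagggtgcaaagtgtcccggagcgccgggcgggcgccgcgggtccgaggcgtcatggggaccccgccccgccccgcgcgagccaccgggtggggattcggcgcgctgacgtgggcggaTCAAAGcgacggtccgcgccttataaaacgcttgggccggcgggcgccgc
Rspo1: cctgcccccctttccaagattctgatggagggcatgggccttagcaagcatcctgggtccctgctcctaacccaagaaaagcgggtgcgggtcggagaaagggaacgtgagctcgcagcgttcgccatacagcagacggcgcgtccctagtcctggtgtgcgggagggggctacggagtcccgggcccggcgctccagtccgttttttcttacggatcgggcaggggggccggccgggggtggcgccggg
Fzd1: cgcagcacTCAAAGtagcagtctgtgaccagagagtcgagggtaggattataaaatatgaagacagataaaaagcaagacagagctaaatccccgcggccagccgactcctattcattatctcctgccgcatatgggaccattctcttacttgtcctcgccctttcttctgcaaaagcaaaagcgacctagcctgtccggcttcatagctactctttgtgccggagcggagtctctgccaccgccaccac
Wnt4: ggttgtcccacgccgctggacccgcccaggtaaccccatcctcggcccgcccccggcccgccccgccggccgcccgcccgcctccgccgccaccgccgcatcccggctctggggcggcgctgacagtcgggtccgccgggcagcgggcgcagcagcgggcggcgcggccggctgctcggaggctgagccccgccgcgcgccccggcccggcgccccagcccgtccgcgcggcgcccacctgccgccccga

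In these windows Wnt11 had 1 TCF/LEF match, beginning 50 bases before its start, and Fzd1 had 1, beginning 242 bases before its start. Rspo1 and Wnt4 had no match in these letters, nor did a second start of Wnt11. RefSeq windows were matched for 38 of the 57 Wnt genes, as 46 windows. Of these, 5 held the TCF/LEF letters and 2 the TEAD letters, beside 13.8% and 12.6% of all 32851 windows of the same length. Windows were matched for 5 of the 6 genes that rose and 2 of the 4 that fell, so Wnt5a, Fzd8 and Rspo3 are not in these counts. The TCF/LEF letters were in 2 of 8 windows of the former and 1 of 2 of the latter. A match is a description of the letters and not of a bound site.

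After ET-1 no Wnt gene reached 2-fold in either genotype by its brightest probe set. Of all genes, 1.95% did so in wild type and 0.513% in the knockout. The differences of the 42 genes ran from -0.67 to 0.55 in wild type and from -0.59 to 0.84 in the knockout. By limma 0 Wnt genes and 0 of all genes (0%) were called for ET-1, and 2 Wnt genes had an unadjusted p under 0.05, where 5.23% of all genes did. The 2 were Fzd3 and Sfrp4. Fzd3, a polarity receptor of axons, read 9.65 and 10.17 in wild type and 9.55 and 10.39 in the knockout, 0.52 and 0.84 higher with ET-1 (0.68 ± 0.12, unadjusted p = 0.00537, adjusted p = 0.78). Its other probe sets past the filter gave 0.54 and 0.24 (1449730_s_at) and 0.09 and -0.23 (1450135_at), so the Fzd3 probe sets disagreed. Sfrp4 read 9.90 and 9.58 in wild type and 10.01 and 9.75 in the knockout, a change of -0.32 and -0.26 (adjusted p = 0.78).

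Apart from Wnt11 (0.06 in wild type, -0.02 in the knockout), the ET-1 differences of the called genes were uneven between genotypes, in both directions. These contrasts were not tested. Wnt5a, Wnt5b, Fzd5 and Rspo3 were 0.50, 0.49, 0.53 and 0.52 higher after ET-1 in wild type, against 0.05, 0.11, -0.06 and -0.20 in the knockout. Fzd8 and Rspo1 were lower in wild type (-0.67 and -0.56), against -0.16 and 0.17. The wild-type readings of Wnt5b and Rspo1 and the knockout readings of Rspo3 were below the filter. The larger difference was in the knockout for Wnt4 (0.17 in wild type, -0.59 in the knockout), Fzd1 (-0.20 and 0.34) and Fzd4 (0.07 and 0.35). The array with the large 3' minus 5' gap enters each of these wild-type values, and its part was not tested. No Wnt gene had ET-1 differences that were 2-fold apart between genotypes by its brightest probe set, where 2.9% of all genes did. The widest was Wnt9a, at 0.35 in wild type and -0.50 in the knockout.

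**Figure D4:**
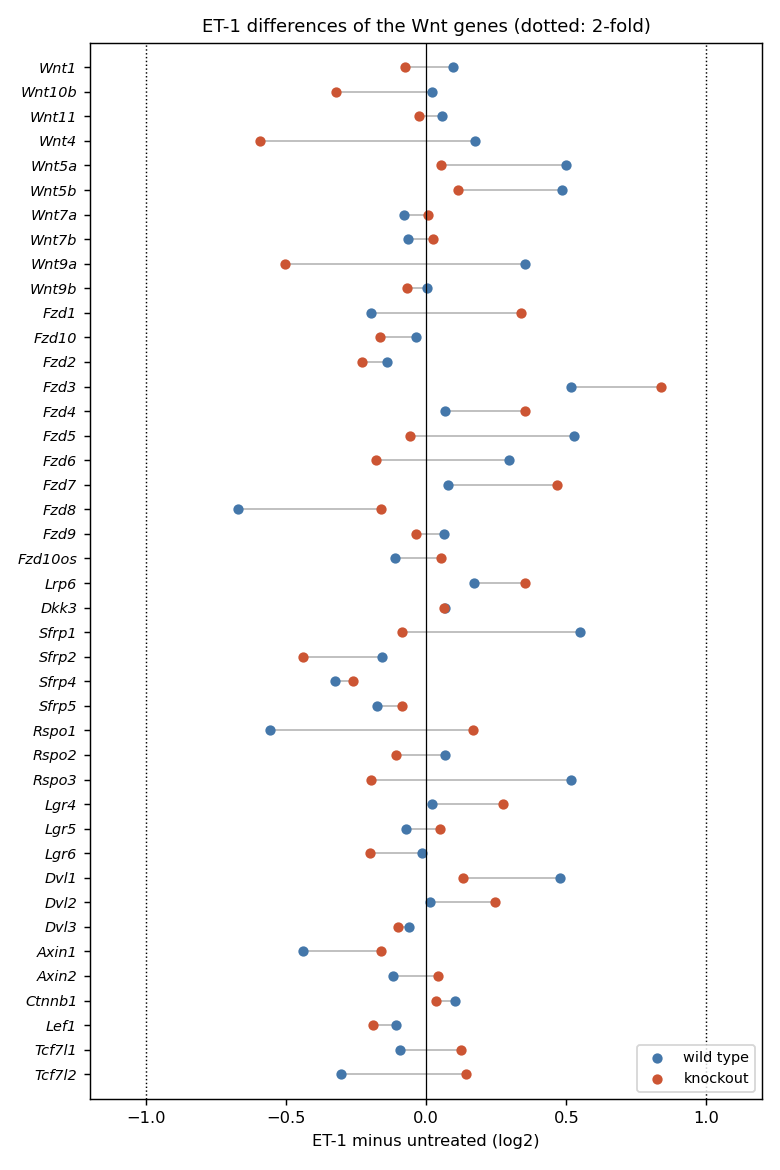
ET-1 minus untreated difference on the log2 scale (x axis) for the 42 Wnt genes tested, in wild type (blue) and knockout (orange), 1 array pair each, ordered by role from ligands at the top to TCF factors at the bottom. All points lie inside the dotted 2-fold lines, with Fzd3 in the knockout (0.84) the farthest to the right and Fzd8 in wild type (-0.67) the farthest to the left.

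Probe sets of the β-catenin and TCF genes disagreed on that array. Ctnnb1 probe set 1430533_a_at read 9.93, 8.09, 9.68 and 9.81 in untreated and ET-1-treated wild type and untreated and ET-1-treated knockout, and 1450008_a_at read 12.15, 11.57, 12.13 and 12.07. The brightest Ctnnb1 probe set was 0.10 higher after ET-1 in wild type, where these were at -1.84 and -0.58. Tcf7l2 probe set 1429427_s_at read 9.25, 6.82, 8.15 and 9.08, while the brightest differed after ET-1 by -0.30 in wild type and 0.14 in the knockout. These were the 2 of 65 Wnt probe sets past the filter that were 2-fold lower after ET-1 in wild type, where 1.9% of all probe sets were; in the knockout there were 0, against 0.258%.

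Other genes of the pathway were taken as a list of 54 secretion, surface, destruction-complex and polarity genes. Of the 43 tested, 3 rose and 6 fell in the knockout by limma, a share of 20.9% beside 13.6% of all genes. Among genes above the filter on all 4 arrays, 3 rose and 3 fell of 36 in the list, beside 13.2% of all genes called. The list median was 0.05 untreated and -0.02 after ET-1, beside 0.02 and -0.03 over all genes. Celsr1, a polarity cadherin, rose by 3.06 ± 0.16 from 7.81 and 7.33 in wild type, below the filter, to 10.60 and 10.65. The formin Daam2 rose by 1.51 ± 0.13 and the glypican Gpc3 by 1.45 ± 0.14.

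Wls, the carrier that Wnt ligands need for secretion, read 13.02 and 13.35 in wild type and 12.05 and 12.03 in the knockout (-1.14 ± 0.18, adjusted p = 0.0318). Ror2, a co-receptor of Wnt5a, read 9.64 and 9.30 against 8.80 and 8.66, with both knockout values below the filter (-0.74 ± 0.10, adjusted p = 0.0251). The glypican Gpc4 (-1.90 ± 0.20), the Dkk receptor Kremen1 (-1.10 ± 0.11) and the TCF-binding kinase Tnik (-1.57 ± 0.24) also fell. Kremen1 was below the filter on the ET-1-treated knockout array (8.50). Tnik read 8.75 and 9.51 in wild type and 7.62 and 7.51 in the knockout, above the filter on the ET-1-treated wild-type array alone. Apcdd1, a membrane inhibitor of Wnt signalling, read 11.77 and 11.72 in wild type and 8.74 and 8.48 in the knockout (-3.14 ± 0.11, adjusted p = 0.00556), so its knockout values were below the filter.

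A list of 20 genes known as β-catenin targets in some tissues, 5 of which are also in the pathway list, had 15 genes tested. Of these 6 fell and 0 rose by limma in the knockout, where 7.05% of all genes fell. By unadjusted p under 0.05 there were 8 and 0, where 1775 of 12290 genes were lower and 1898 higher. The share called was 40.0%, beside 13.6% of all genes. With the 3 tested targets that are Wnt genes above, it was 6 of 18. Among genes above the filter on all 4 arrays, 4 of 12 targets were called, all lower, beside 13.2% of all genes called in either direction. The list median was -0.60 untreated and -0.31 after ET-1, beside 0.02 and -0.03 over all genes. The 6 were Apcdd1 and Fst (-3.49 ± 0.27), both below the filter in the knockout, Fosl1 (-2.66 ± 0.17), Myc (-1.60 ± 0.25), Cd44 (-1.59 ± 0.18) and Ccn4 (-1.44 ± 0.25). Many other signals are known to regulate each of these genes. Ccnd1, Sox4, Sox9, Nkd1 and Znrf3 were not called, at 0.04, 0.21, -0.06, 0.03 and 0.16, and Axin2, Lef1 and Lgr5 among the Wnt genes above were not called either.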

How the data were processed

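RNA from 4 cultures was hybridised to 1 array each after labelling 100 ng in 2 cycles, per the labels' protocols. The authors deposited 1 table of log2 values for 45101 probe sets, and the submitters' processing notes name RMA; its version and a genome build are not given in the sources used here. The method corrects background, equalises the arrays and summarises probes. It can understate differences of dim genes.

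The platform annotation paired 34958 probe sets with 1 gene, 932 with several and 9211 were not listed. The brightest probe set by mean stood for each of 18194 genes, and 12290 genes whose highest value exceeded the median of all values were fitted with limma 3.58.1 (lmFit, eBayes with intensity trend) in R 4.3.3 with genotype and treatment as additive terms. P-values were adjusted by Benjamini-Hochberg over those genes. The fit has 1 residual degree of freedom and 2.996 from the prior. Folds between 2 arrays are plain differences of the deposited log2 values. The number of arrays limits the precision.

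Genes given with every array's value are those called for genotype, those at 2-fold in both treatment states or after ET-1, and the β-catenin, Axin2, TCF, LEF and Lrp genes; some further genes and probe sets, among them Rspo2, Sfrp1, Wnt9a and Fzd3, were named after their values were seen. The members, lists and tests were chosen with earlier results of these data known. The alternatives were another probe set rule, level filter, normalisation, variance prior, fold threshold and model. No probe set for FAK itself was used, so the genotypes rest on the labels alone. Python 3.11.15, pandas 2.3.3, numpy 2.4.6 and matplotlib 3.10.9 did the rest.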

Additional observations from a re-analysis of the deposited data

Results flagged for a closer look

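For 4 probe sets of Wnt genes the ET-1 difference went in opposite directions in the genotypes and the genotypes were 2-fold or more apart. With 1 array per group these differences between genotypes were not tested, and how many of all probe sets met this rule was not counted. Knockout minus wild type, the differences of ET-1 differences were 3.36 for Tcf7l2 (1429427_s_at, -2.43 in wild type and 0.93 in the knockout), 1.96 for Ctnnb1 (1430533_a_at, -1.84 and 0.12), 1.004 for Fzd4 (1419301_at, -0.45 and 0.55) and -1.41 for Rspo2 (1455893_at, 0.86 and -0.56). Each of these 4 probe sets was below the level filter on at least 1 array, that of Fzd4 on both wild-type arrays and that of Rspo2 on both knockout arrays. The brightest probe sets of the same genes gave 0.45, -0.07, 0.28 and -0.18.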

How the results depend on the processing

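The 10 Wnt genes called for genotype became 7 to 11 under the 8 other settings of probe set, filter, normalisation, prior and model, with 7 to 10 of the 10 kept, while the share of all genes called ran from 8.23% without the level filter to 18.9% with array medians subtracted. Leaving out less specific probe sets dropped Wnt4 and Wnt5b. Stricter filtering left out Rspo1, Rspo3 and Wnt5b, which are below the filter on some arrays. All 10 kept their sign wherever they were tested. The 8 settings reuse the same 4 arrays, and those of filter, prior and model leave the difference itself unchanged, so the kept sign is not a separate check. Without the ET-1-treated wild-type array the additive model could not be fitted. Genotype alone over the 3 other arrays called 13 Wnt genes, the 10 with Dvl1, Sfrp1 and Wnt9a, where 23.1% of all genes were called; its residual is the gap between both knockout arrays, and the lone wild-type array is assumed to vary likewise. Between the untreated arrays 9 of the 10 were 2-fold apart, the exception being Wnt4, where 9.37% of all genes were. Those arrays are part of the fit that chose the 10, so that count is not a separate check. These settings and the fit to every probe set were chosen after seeing the data. With the mean of probe sets the untreated genotype count of 10 at 2-fold became 5 (8.11% of all genes), that after ET-1 went from 8 to 5 (10.4%), and 1 gene rather than 0 had ET-1 differences 2-fold apart (1.97%), among 33 Wnt genes past the filter. At 1.5-fold the genotype count after ET-1 became 13 of 42 (25.2% of all genes), the ET-1 counts 1 in wild type (10.7%) and 2 in the knockout (2.33%) rather than 0, and the count for the difference of ET-1 differences 6 (12.4%). A lower threshold passes more genes by construction; the cause of the other moves was not tested. The count for ET-1 by limma was 0 under the 7 other settings run for it. Targets numbered 4 to 6 fallen and 0 risen among 12 to 20 tested. They were 4 of 12 with the stricter filter (13.2% of all genes called) and 4 of 20 without a filter (8.23%). The other pathway genes numbered 3 to 8 fallen and 2 to 4 risen among 36 to 54 tested, where 8.23% to 18.9% of all genes were called. No paired analysis was possible because each group has 1 array and the labels give no replicate numbers; the treatment term already compares genotypes within each treatment state.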
